A study of Homo sapiens with 12 samples.

Results

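The RNAs described here were 8 hosts of small nucleolar RNAs (snoRNAs), GAS5, SNHG1, SNHG5, SNHG6, SNHG7, SNHG8, SNHG12 and EPB41L4A-AS1, and 2 long non-coding RNAs (lncRNAs) of the nucleus, MALAT1 and NEAT1. They were chosen by name, as the rows of the count table that carry these symbols, and all 10 had a row among 16389. In high glucose, NEAT1 and SNHG1 stood above low glucose while the other 8 were not called. SNHG1 kept this call in all 16 alternative analyses and NEAT1 in 14 of 16. With valproic acid (VPA) in high glucose, SNHG8, EPB41L4A-AS1, SNHG12 and SNHG1 fell in every alternative analysis that was run, and MALAT1 was called in no comparison.

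A snoRNA host gene is spliced like a messenger RNA, and the snoRNAs are cut out of its introns. They then guide the chemical modification or the cleavage of ribosomal RNA. Many hosts carry no long reading frame, so that the spliced exons are degraded when ribosomes pass over them (nonsense-mediated decay), and their transcription follows that of ribosomal protein genes. MALAT1 lies in nuclear speckles, bodies rich in splicing factors, and NEAT1 is the RNA scaffold around which paraspeckles form with the proteins NONO and SFPQ. VPA inhibits histone deacetylases.

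All libraries came from HepG2, an established human liver cancer line. LG cells were kept in 5.5 mM glucose and HG cells in 20 mM glucose for 48 h, both without VPA. LGV and HGV cells had the same media and 1 mM VPA for another 12 h. Whether cells without VPA were kept for those 12 h too is not said in the sources used here. If not, VPA and culture time cannot be told apart in the contrasts of VPA. Each group had 3 libraries, numbered as in the labels (LG1 to HGV3), and the sources used here do not say whether these came from separate cultures, so that p-values measure the spread between the libraries. The cells were of 1 line, and no genotype or strain differed between groups. RNA with poly(A) tails was sequenced and the authors deposited reads counted per gene. Levels are given as CPM, the count of a gene over the total of its library, per 1e6 counts, scaled with TMM factors that correct for composition.

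Between 29798442 and 45572694 reads were counted per library, and counts of the 10 RNAs ran from 464 (SNHG12, HGV1) to 19625 (GAS5, LG2), far above a floor of 3 reads (0.0658 to 0.101 CPM, counting error only). The 8 hepatocyte markers (ALB and others) summed to between 39700 and 60800 CPM. Of the 9 markers of leukocytes, endothelium and fibroblasts, 4 had a row, and each of these lists summed to under 5 CPM in every library. Levels in bulk RNA cannot tell fewer expressing cells from less RNA per cell.

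The genome placed these genes on 7 chromosomes. In the GENCODE annotation of GRCh37, GAS5 lay on the minus strand at chr1:173827697-173838020, SNHG12 on the minus strand at chr1:28905050-28909644, and SNHG8 on the plus strand at chr4:119199858-119206471. SNHG5 lay on the minus strand at chr6:86360209-86388650, SNHG7 on the minus strand at chr9:139615818-139622636, and SNHG6 is given here without a position. EPB41L4A-AS1 lay on the plus strand at chr5:111496223-111500515. Chromosome 11 held SNHG1 (minus strand, chr11:62619450-62623425) and the neighbours NEAT1 (plus strand, chr11:65190245-65213011) and MALAT1 (plus strand, chr11:65265111-65275544). RefSeq places 11 snoRNA genes inside GAS5, 9 in SNHG1, 4 in SNHG12, 2 each in SNHG5 and SNHG7, and 1 each in SNHG6, SNHG8 and EPB41L4A-AS1. None of these snoRNAs had a row of its own, so only the hosts were measured.

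The start regions of the hosts are shown because several shared a feature that played no part in the choice. RefSeq promoter windows (GRCh38.p14, 250 bases before to 50 after a start) were found for 8 of the 10 genes, all but SNHG6 and NEAT1. A TATA box was searched as TATAA on the gene's own strand, beginning 20 to 40 bases before the start. It was present at a start of 5 of these 8 genes. Counted by window and not by gene, it was present in 3.91% of the 35116 windows searched. The 5 are printed from 45 bases before the start, for 70 bases each, with TATAA in capitals. For MALAT1 this is the second of 2 RefSeq starts.
SNHG5, chr6:85678709-85678778, minus strand: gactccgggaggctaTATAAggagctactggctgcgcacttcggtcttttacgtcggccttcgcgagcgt
SNHG7, chr9:136728160-136728229, minus strand: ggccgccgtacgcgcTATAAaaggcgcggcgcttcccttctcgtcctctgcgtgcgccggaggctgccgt
SNHG8, chr4:118278717-118278786, plus strand: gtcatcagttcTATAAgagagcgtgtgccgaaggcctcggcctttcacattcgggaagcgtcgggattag
SNHG12, chr1:28581849-28581918, minus strand: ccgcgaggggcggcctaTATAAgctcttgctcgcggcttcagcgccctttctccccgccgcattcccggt
MALAT1, chr11:65499000-65499069, plus strand: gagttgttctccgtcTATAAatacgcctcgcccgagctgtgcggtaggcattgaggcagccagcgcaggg
The 5 boxes began 28 to 34 bases before the start. GAS5, SNHG1, EPB41L4A-AS1 and the first start of MALAT1 had no TATAA in that interval, which says only that these letters are not in the window. For GAS5 the RefSeq start lies upstream of the start at which the gene is commonly drawn.

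The start of SNHG1 is shown in full because SLC3A2, the heavy chain of amino acid transporters of the plasma membrane, is transcribed away from it on the opposite strand. The RefSeq starts of both genes lie 224 bases apart, and 1 of the 3 RefSeq starts of SLC3A2 faces SNHG1. The window of SNHG1 (GRCh38.p14, chr11:62855836-62856135, minus strand) is printed with the 223 bases between both starts in capitals.
SNHG1: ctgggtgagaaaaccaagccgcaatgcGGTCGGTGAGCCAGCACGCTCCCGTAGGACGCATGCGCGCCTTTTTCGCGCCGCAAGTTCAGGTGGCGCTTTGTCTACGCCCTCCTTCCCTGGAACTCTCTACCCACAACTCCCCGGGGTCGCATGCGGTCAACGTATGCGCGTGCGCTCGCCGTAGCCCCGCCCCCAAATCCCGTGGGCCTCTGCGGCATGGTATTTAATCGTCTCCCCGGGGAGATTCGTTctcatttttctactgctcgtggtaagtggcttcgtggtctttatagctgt
G and C made up 64.1% of the bases in capitals.

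A snoRNA is printed for the pair of hosts that were called lower with VPA in both media. SNORD99, a box C/D snoRNA, lies in SNHG12 (GRCh37, chr1:28905261-28905334, minus strand), and its box D (CTGA) is in capitals. SNORA13, a box H/ACA snoRNA, lies in EPB41L4A-AS1 (GRCh37, chr5:111497182-111497314, plus strand), and its box ACA is in capitals.
SNORD99: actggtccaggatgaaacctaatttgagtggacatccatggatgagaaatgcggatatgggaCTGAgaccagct
SNORA13: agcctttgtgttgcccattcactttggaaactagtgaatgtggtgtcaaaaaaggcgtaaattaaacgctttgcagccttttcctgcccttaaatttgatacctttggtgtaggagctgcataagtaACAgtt
MALAT1 ends in a cleaved end and not in a poly(A) tail, and its locus holds a run of 13 A, in capitals below, the longest of the locus (GRCh37, chr11:65273561-65273590, plus strand). The libraries were selected for poly(A), and what that selection retained of MALAT1 or of the transcripts of NEAT1 was not tested. Because counts were made per gene, the 9 annotated transcripts of NEAT1 cannot be told apart.
MALAT1: tctagcttAAAAAAAAAAAAAgcaaaagat

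Per kilobase of annotated exon, GAS5 was the most abundant of the 10 in each group, with a mean of 81.2 CPM per kb in LG, and SNHG1 followed with 43.8. MALAT1 (32.3), SNHG5 (27.9), SNHG7 (27.0), SNHG8 (26.0) and SNHG6 (19.5) came next in LG. The SD between libraries was 17.8% to 25.1% of the mean for the first 4 of these 5, so that their order is not resolved. EPB41L4A-AS1 (8.98), SNHG12 (4.94) and NEAT1 (3.96) were lowest in LG. In HGV NEAT1 reached 14.7 CPM per kb, above SNHG6 (13.6), EPB41L4A-AS1 (5.87) and SNHG12 (3.19). Exon lengths came from a GENCODE release later than the annotation used for counting, which makes these values approximate. Each length is the union over all annotated transcripts. For SNHG1 (3976 bases), SNHG8 (6614 bases) and NEAT1 (22767 bases) this union covers the whole gene. For SNHG5 it holds 12604 bases from 89 transcripts. The order between genes therefore depends on these lengths as well as on the levels.

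**Figure D1:**
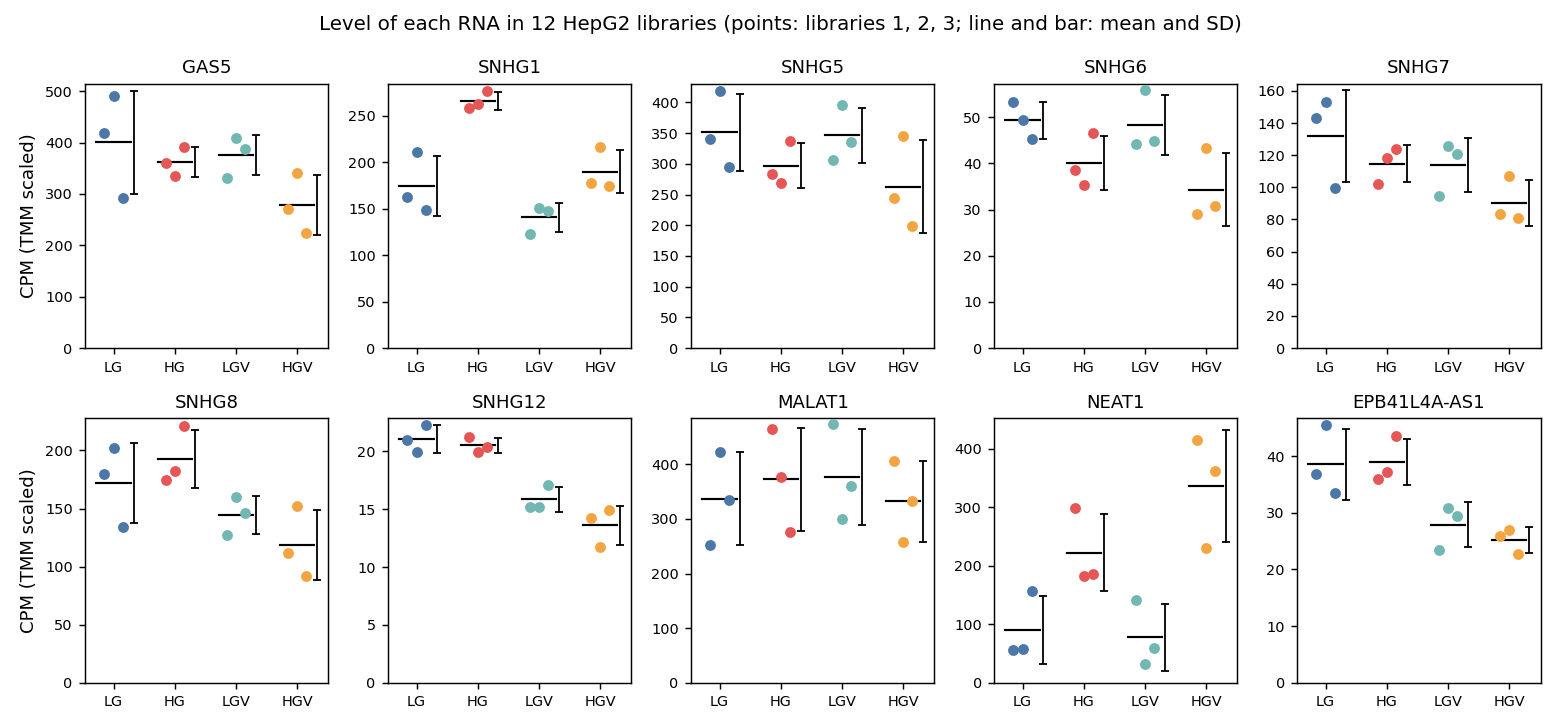
Level of each RNA in CPM (vertical axis, linear, from 0) by group, with a point for each library, a line at the mean and a bar for the SD. NEAT1 is higher in HG and HGV than in LG and LGV. SNHG1 is higher in HG than in LG and in HGV than in LGV. Its points in HGV (175 to 217 CPM) overlap those of LG (149 to 211 CPM). SNHG12 and EPB41L4A-AS1 are lower in LGV and HGV than in LG and HG, and the points of MALAT1 overlap between all groups.

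The first question was how the hosts and the nuclear lncRNAs differed with glucose. Of the 10, 2 were called between HG and LG (FDR of 0.05 or less), both higher in HG. Over all 15452 genes tested, 24.7% were called, 12.0% higher and 12.7% lower, so that the share of these RNAs called was near that of all genes. Their median log2 fold change was 0.01, against 0.011 over all genes.

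SNHG1, which holds 9 snoRNA genes, measured 163, 211 and 149 CPM in LG1, LG2 and LG3, and 258, 263 and 277 CPM in HG1, HG2 and HG3. Every HG library lay above every LG library. SNHG1 was 1.55-fold higher in HG (log2 fold change 0.63, SE 0.13, FDR 0.00244). It was called in all 16 alternatives, with a log2 fold change of 0.53 to 0.82 when a library was left out.

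NEAT1 measured 56.2, 57.3 and 157 CPM in the LG libraries, and 298, 183 and 185 CPM in the HG libraries. LG3 and HG1 were each far above the other two of their group, and the groups did not overlap. NEAT1 was 2.48-fold higher in HG (log2 fold change 1.31, SE 0.28, FDR 0.00257). The call was lost without HG1 (log2 fold change 1.06, FDR 0.0504) and with the Wald test of DESeq2 (FDR 0.0801), and the log2 fold change was 1.99 without LG3.

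The other snoRNA hosts were not called between HG and LG. GAS5, known as a growth arrest transcript that can bind the glucocorticoid receptor, measured 419, 490 and 292 CPM in LG and 361, 334 and 392 CPM in HG, within the LG range (log2 fold change -0.12, 95% interval -0.44 to 0.20, FDR 0.591). SNHG12 measured 21.0, 19.9 and 22.3 CPM in LG and 21.2, 19.9 and 20.4 CPM in HG (log2 fold change -0.02, 95% interval -0.32 to 0.28). EPB41L4A-AS1 had a log2 fold change of 0.04 (95% interval -0.27 to 0.34) and SNHG8 of 0.19 (95% interval -0.12 to 0.49). Of SNHG5, SNHG6 and SNHG7, with log2 fold changes of -0.22, -0.27 and -0.18, SNHG7 alone was called in an alternative, without LG3 (-0.34, FDR 0.0434). MALAT1 measured 253, 423 and 334 CPM in LG and 465, 376 and 277 CPM in HG, and the groups overlapped (log2 fold change 0.16, 95% interval -0.21 to 0.53, FDR 0.527).

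The same contrast of glucose was made among cells that had VPA. Between HGV and LGV, 4 of 10 were called, 2 higher and 2 lower in HGV. Of 16208 genes tested, 40.7% were called, 21.2% higher and 19.5% lower, again a share like that of these RNAs.

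NEAT1 differed most. It measured 142, 32.2 and 59.0 CPM in LGV1, LGV2 and LGV3 and 415, 230 and 362 CPM in HGV1, HGV2 and HGV3. The lowest HGV library lay above the highest LGV library. NEAT1 was 4.25-fold higher in HGV (log2 fold change 2.09, SE 0.34, FDR 0.000143), was called in all 16 alternatives, and ranged from 1.72 to 2.86 when a library was left out. SNHG1 measured 123, 151 and 148 CPM in LGV and 178, 217 and 175 CPM in HGV, with every HGV library higher. Its log2 fold change was 0.41 (SE 0.13, FDR 0.0168), and the call was lost without HGV2 (0.31, FDR 0.0505) or LGV1 (0.33, FDR 0.0571).

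SNHG6 and GAS5 were lower in HGV than in LGV. SNHG6 measured 44.3, 55.8 and 44.9 CPM in LGV and 29.0, 43.3 and 30.7 CPM in HGV (log2 fold change -0.51, SE 0.15, FDR 0.0114). The groups did not overlap, but HGV2 lay close to the LGV libraries, and the call was lost without HGV1 (FDR 0.0728) or LGV2 (FDR 0.0692). GAS5 measured 332, 409 and 387 CPM in LGV and 270, 341 and 224 CPM in HGV (log2 fold change -0.45, SE 0.15, FDR 0.0226). The groups overlapped through HGV2, and without HGV1, HGV3, LGV2 or LGV3 the FDR rose to between 0.074 and 0.136.

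SNHG5, SNHG7 and SNHG8 had log2 fold changes of -0.42, -0.35 and -0.30 between HGV and LGV and missed the threshold (FDR 0.0565, 0.0525 and 0.134). With the likelihood ratio test of edgeR (FDR 0.0367 and 0.0402), the Wald test of DESeq2 (FDR 0.0399 and 0.0436) and the size factors of DESeq2 (FDR 0.0499 and 0.0464), SNHG5 and SNHG7 were called. A replicate block gave calls for SNHG5, SNHG7 and SNHG8 (FDR 0.00216, 0.016 and 0.0292). In each of the 3, HGV2 was the highest HGV library. Without HGV2 all 3 were called (-0.66, -0.48 and -0.52, with FDR 0.00182, 0.00729 and 0.00547), and without LGV1 SNHG5 (FDR 0.0495) and SNHG7 (FDR 0.0149) were called. SNHG12, EPB41L4A-AS1 and MALAT1 were not called (-0.24, -0.17 and -0.20).

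**Figure D2:**
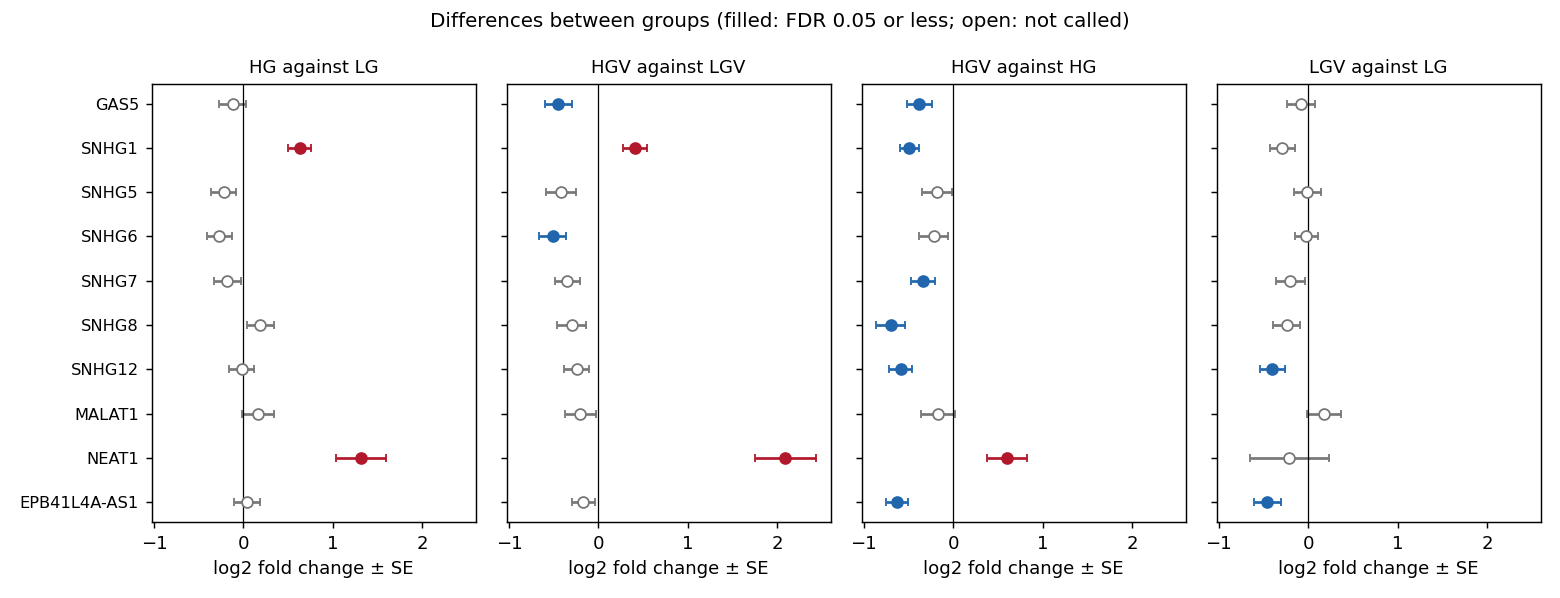
Log2 fold change of each RNA in 4 comparisons (horizontal axis, bars show the SE), filled where the FDR was 0.05 or less. In both contrasts of glucose NEAT1 and SNHG1 are the filled points on the right, and in HGV against HG most hosts lie to the left of 0.

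The second question was how these RNAs differed with VPA in high glucose. Between HGV and HG, 7 of 10 were called, 1 higher (NEAT1) and 6 lower, all of the 6 being snoRNA hosts. Of 16188 genes tested, 46.1% were called, 25.8% higher and 20.2% lower. The median log2 fold change was -0.36 over the 10 RNAs and 0.025 over all genes.

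SNHG8, the host of SNORA24, measured 175, 182 and 221 CPM in HG and 112, 152 and 92.3 CPM in HGV. Every HGV library lay below every HG library, and HGV2 was the highest of its group. SNHG8 fell by 0.70 on the log2 scale (SE 0.16, FDR 0.00378). EPB41L4A-AS1, the host of SNORA13, measured 36.0, 37.2 and 43.5 CPM in HG and 25.9, 27.0 and 22.7 CPM in HGV, without overlap (log2 fold change -0.63, SE 0.12, FDR 0.000923).

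SNHG12, which holds SNORD99 and 3 box H/ACA snoRNA genes, measured 21.2, 19.9 and 20.4 CPM in HG and 14.2, 11.7 and 14.9 CPM in HGV. The groups were far apart for their spread (log2 fold change -0.59, SE 0.13, FDR 0.00217). SNHG1 also fell without overlap, from between 258 and 277 CPM in HG to between 175 and 217 CPM in HGV (log2 fold change -0.49, SE 0.11, FDR 0.0029). These 4 hosts were called in all 16 alternatives.

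GAS5 and SNHG7 were called close to the threshold. GAS5 measured 361, 334 and 392 CPM in HG and 270, 341 and 224 CPM in HGV (log2 fold change -0.38, SE 0.14, FDR 0.0445), and SNHG7 102, 118 and 124 CPM in HG and 83.4, 107 and 81.0 CPM in HGV (-0.34, SE 0.13, FDR 0.0414). In both HGV2 overlapped the HG libraries. The call of GAS5 was lost without HG1, HG2, HG3, HGV1 or HGV3 (FDR 0.0547 to 0.17), and that of SNHG7 without HG2, HG3, HGV1 or HGV3 (FDR 0.108 to 0.159). Both calls were also lost with upper quartile or library size scaling (FDR 0.0893 to 0.139) and in 1 fit of 12 libraries (FDR 0.0707 and 0.0804).

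SNHG5 and SNHG6 were not called in HGV against HG (-0.18, FDR 0.436, and -0.22, FDR 0.272). SNHG5 measured 284, 269 and 338 CPM in HG and 244, 346 and 198 CPM in HGV, and HGV2 was the highest of the 6. Without HGV2 SNHG5 (-0.42, FDR 0.0118) and SNHG6 (-0.42, FDR 0.0159) were both called. NEAT1 was 1.51-fold higher in HGV than in HG (log2 fold change 0.60, SE 0.22, FDR 0.0425), with HG1 (298 CPM) above HGV2 (230 CPM). Its call was lost without HG2, HG3, HGV1 or HGV3 (log2 fold change 0.42 to 0.54, FDR 0.115 to 0.182) and in 1 fit of 12 libraries (FDR 0.243). MALAT1 measured 406, 258 and 332 CPM in HGV and overlapped HG (-0.17, 95% interval -0.58 to 0.25, FDR 0.501).

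In low glucose, 2 of 10 were called between LGV and LG, both lower. Of 15944 genes tested, 41.6% were called, 21.7% higher and 19.9% lower. The median log2 fold change was -0.21 over the 10 RNAs and -0.006 over all genes. The 2 were EPB41L4A-AS1 and SNHG12, which were also called in HGV against HG.

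EPB41L4A-AS1 measured 36.8, 45.5 and 33.4 CPM in LG and 23.4, 30.8 and 29.5 CPM in LGV (log2 fold change -0.46, SE 0.15, FDR 0.022). SNHG12 measured 21.0, 19.9 and 22.3 CPM in LG and 15.2, 15.2 and 17.1 CPM in LGV (-0.40, SE 0.14, FDR 0.0278). For both, every LGV library lay below every LG library. Without LG2, LGV1 or LGV3 the call of EPB41L4A-AS1 was lost (FDR 0.0545 to 0.103), and without LG1, LG3, LGV1, LGV2 or LGV3 that of SNHG12 (FDR 0.0552 to 0.102). With library size scaling neither was called (-0.30, FDR 0.0966, and -0.24, FDR 0.214), and with upper quartile factors SNHG12 was not (FDR 0.0744).

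LG3 decided other calls of this comparison. SNHG1, SNHG7 and SNHG8 were not called with all libraries (-0.29, -0.20 and -0.24), and were called without LG3 (-0.38, FDR 0.036, -0.35, FDR 0.0447, and -0.38, FDR 0.0277). GAS5, SNHG5 and SNHG6 lay within 0.08 of 0 on the log2 scale, with FDR of 0.743 and above. NEAT1 had a log2 fold change of -0.21 with a wide 95% interval, from -1.14 to 0.73, and turned to 0.49 without LG3 and to 0.16 without LGV2, none of these called. MALAT1 measured 473, 300 and 360 CPM in LGV (log2 fold change 0.18, FDR 0.49).

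The last test asked whether the response to VPA differed between the media, which is the difference of both VPA contrasts over 12 libraries. Of the 10 RNAs, 0 were called by edgeR's quasi-likelihood test, and 0 had an unadjusted p under 0.05. The likelihood ratio test of edgeR and the Wald test of DESeq2 also called 0 of the 10. Of 16389 genes, 0.0427% were called, which is 7 genes, and 1852 had an unadjusted p under 0.05. SNHG8 came closest (-0.44, 95% interval -0.94 to 0.05, FDR 0.504). NEAT1 had the largest estimate (0.81, 95% interval -0.37 to 1.99, FDR 0.628), and its interval spans 0 widely, so that a difference in its response between the media was not detectable with these libraries.

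SNHG1 and SLC3A2, which face each other across the stretch printed in capitals above, moved apart with glucose. SLC3A2 measured 1410, 1390 and 936 CPM in LG and 336, 388 and 406 CPM in HG (log2 fold change -1.70, SE 0.15, FDR 4.54e-07), a fall, where SNHG1 rose. The ratio of SNHG1 to SLC3A2 was 0.115, 0.152 and 0.159 in the LG libraries and 0.768, 0.677 and 0.683 in the HG libraries. In the VPA groups it was 0.184, 0.191 and 0.187 in LGV and 0.540, 0.579 and 0.610 in HGV, again without overlap.

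SLC3A2 was also lower in HGV than in LGV (-1.20, SE 0.14, FDR 5.63e-06) and in LGV than in LG (-0.72, SE 0.16, FDR 0.00218). In HGV against HG, where SNHG1 fell, SLC3A2 was not called (-0.19, FDR 0.227), but it was without HGV2 (-0.29, FDR 0.0474). The gene on the other side of SNHG1, WDR74, which acts in ribosome assembly, was lower in all 4 comparisons (-0.57 for HG and LG, -0.96 and -0.78 with VPA in high and in low glucose, and -0.78 for HGV and LGV). Counts were made per gene, so that reads from the start of SLC3A2 that faces SNHG1 cannot be told apart from those of its other 2 starts.

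**Figure D3:**
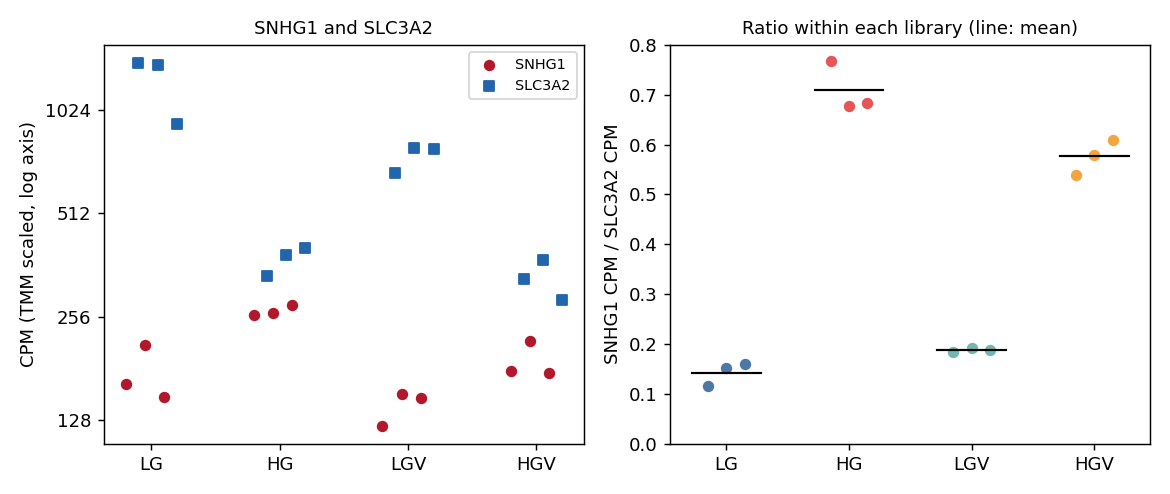
SNHG1 and SLC3A2 by library (left, CPM on a log axis) and the ratio of their levels within each library (right, linear axis from 0, line at the mean). SLC3A2 falls and SNHG1 rises from LG to HG, and the ratio lies between 0.115 and 0.191 in LG and LGV and between 0.540 and 0.768 in HG and HGV.

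Other genes share exons with the hosts on the opposite strand, and the sources used here do not state whether the counting used strand, so that shared reads cannot be told apart. FAM69B covers 1482 exon bases of SNHG7 (30.3% of its exons). It rose with VPA, by 1.88 on the log2 scale in HGV against HG (FDR 1.39e-05) and by 1.38 in LGV against LG (FDR 0.00465), where SNHG7 had values of -0.34 and -0.20. EPB41L4A, which encodes a protein of the FERM family, covers 2200 bases of EPB41L4A-AS1 (51.2%). It was not called in HGV against HG (1.21, FDR 0.0877) but was without HG2 (2.19, FDR 0.0119) and in 2 other alternatives, among them the likelihood ratio test of edgeR (FDR 0.0405). TRNAU1AP shares 8 exon bases with SNHG12. For NEAT1 the nearest gene to the left with a row, FRMD8, was not called in any comparison (-0.12 to -0.03 for 3 of the 4, and -0.14 in HG against LG), and its sign turned with the scaling in both VPA contrasts. The nearest to the right, AP000769.1, lay 9729 bases away on the strand of NEAT1. It was higher in HGV than in HG (2.24, FDR 0.00155) and than in LGV (1.18, FDR 0.0145). In HG against LG and in LGV against LG it was not tested.

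In HG, LGV and HGV a single library (HG3, LGV2 and HGV2) held the highest level of 7 hosts, all but SNHG12, and in LG LG2 held it for 6 of these 7. The share of counts on 81 ribosomal protein genes ran from 5.97% to 6.88% in LG, 5.81% to 6.73% in HG, 6.39% to 7.15% in LGV and 5.42% to 6.94% in HGV. Over 12 libraries, after the group means were taken out, 7 hosts (all but SNHG12) correlated with this share at r of 0.67 (EPB41L4A-AS1) to 0.92 (SNHG6). SNHG12 had r of -0.79, NEAT1 -0.73 and MALAT1 -0.65. These values are a description over libraries that share normalization and depth, since all levels come from the same totals.

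In all 4 groups the library with the most NEAT1 (LG3, HG1, LGV1 and HGV1) had the lowest ribosomal protein share. SNHG1, SNHG6, SNHG7, SNHG8 and EPB41L4A-AS1 were at their lowest in that same library in 3 of 4 groups, and MALAT1 at its highest in 3 of 4. HGV2, the library whose removal brought SNHG5 and SNHG6 past the threshold, had the highest ribosomal protein share of HGV (6.94%, against 5.42% and 5.65%). The part of this share in the differences between groups was not tested.

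**Figure D4:**
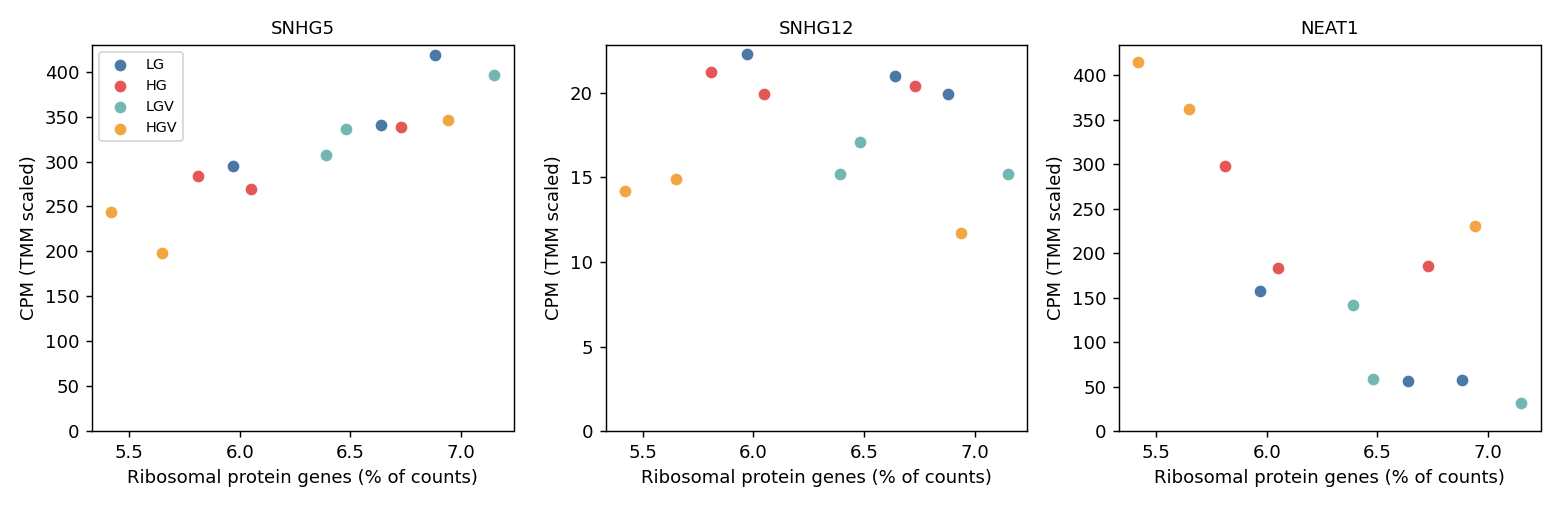
Levels of SNHG5, SNHG12 and NEAT1 in CPM (vertical axes, from 0) against the share of counts on ribosomal protein genes (horizontal axis, percent) in 12 libraries, coloured by group. SNHG5 is higher and NEAT1 lower where the share is higher, while SNHG12 is lower in the libraries with VPA. Within LG, SNHG12 is lower where the share is higher, and HG, LGV and HGV do not follow that order throughout.

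The genes whose profile over 12 libraries was most like that of each RNA are given with Pearson's r of log2 CPM. For GAS5 they were ZNF33B (0.94), SNHG7 (0.934) and the ribosomal protein gene RPL24 (0.932). SNHG5 was closest to another snoRNA host, ZFAS1 (0.977), then RPL35A (0.955) and CCNI (0.953), and SNHG7 to RPL8 (0.965), RPS16 (0.96) and RPLP1 (0.959). SNHG6 was closest to KRT8P3 (0.962), RPS7 (0.96) and NT5C3B (0.956), and SNHG8 to EIF1 (0.931), COMMD7 (0.923) and GNAS (0.917). Among the 3 closest genes of these 5 hosts, ribosomal protein genes recurred in 4.

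Other RNAs had other neighbours in profile. SNHG12 was closest to INO80 (0.98) and to NCL (0.978), the gene of nucleolin, itself a snoRNA host, and EPB41L4A-AS1 to ERP29 (0.983), ZNRF1 (0.97) and MKRN3 (0.967). SNHG1 was closest to AGA (0.953) and RBP4 (0.937). NEAT1 was closest to LENG8-AS1 (0.979), RNF141 (0.979) and CCDC159 (0.978), and MALAT1 had no gene above 0.883 (RP11-762H8.2). How high r runs for other profiles, with 16389 genes and 4 groups, was not tested, and these values are a description only.

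The other members of these pathways were counted from lists of gene symbols. Beside these counts stand the shares of all genes called lower, 20.2% in HGV against HG and 19.9% in LGV against LG. For the contrasts of glucose these shares were 12.7% in HG against LG and 19.5% in HGV against LGV. Of 16 other snoRNA host lncRNAs, 11 had a row, and none was called higher in any of the 4 comparisons. In HGV against HG 5 of 11 fell, LINC00338, the older symbol of SNHG20 (-1.04, SE 0.13, FDR 3e-05), SNHG3 (-0.73), DANCR (-0.66), SNHG17 (-0.50) and C6orf48 (-0.36, FDR 0.0383). Their median was -0.26, against 0.025 over all genes. The call of C6orf48 was lost without HG2, HG3, HGV1 or HGV3 (FDR 0.0669 to 0.157), and with upper quartile or library size scaling (FDR 0.0866 and 0.119).

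In LGV against LG 4 of the 11 fell, LINC00338 (-0.66, FDR 0.0012), SNHG16 (-0.44), SNHG3 (-0.40) and SNHG17 (-0.37), with a median of -0.37 against -0.006. Without LGV1 the last 3 of these 4 were not called (FDR 0.061, 0.0984 and 0.0834). SNHG16 also lost its call without LGV3 (FDR 0.0643), SNHG3 without LG1 (FDR 0.0611), and SNHG17 without LG1, LGV2 or LGV3 (FDR 0.0807 to 0.118). Between HG and LG 1 of the 11 was called, DANCR, at 120 CPM in LG and 71.1 CPM in HG (-0.73, SE 0.15, FDR 0.00189). DANCR was lower in HGV than in LGV too (-1.04, FDR 4.44e-05), with ZFAS1 (-0.56, FDR 0.015), whose call was lost without HGV1 (FDR 0.0714) or HGV3 (FDR 0.0893).

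Of 30 protein-coding genes that host snoRNAs, most were not called with VPA. In HGV against HG 8 fell and 0 rose (median -0.20, against 0.025 over all genes), and in LGV against LG 8 fell and 0 rose (median -0.21, against -0.006), numbers of falls near the share of all genes. DKC1, which encodes the pseudouridine synthase of box H/ACA particles and hosts snoRNAs itself, fell most (-0.91 and -0.82, FDR 8.9e-06 and 5.5e-05). Of 16 proteins of snoRNA particles, 2 rose and 3 fell in HGV against HG and 1 rose and 3 fell in LGV against LG, with medians of -0.10 and -0.15. The risers were SHQ1 (0.51 and 0.48) and, in HGV against HG, RUVBL2 (0.35), both assembly factors, and the others that fell were NOP56 (-0.36 and -0.55), a core protein of box C/D particles, GAR1 (-0.56, high glucose) and ZNHIT3 (-0.30, low glucose). The call of ZNHIT3 was lost whichever library was left out (FDR 0.0538 to 0.169), that of RUVBL2 without HG1, HG2, HG3, HGV2 or HGV3 (FDR 0.0558 to 0.125) and with both DESeq2 settings (FDR 0.0542 and 0.0575), that of NOP56 in high glucose without HG3 (FDR 0.0603), and that of SHQ1 in low glucose without LG1, LGV2 or LGV3 (FDR 0.0647 to 0.0816). In HG against LG 1 of the 30 hosts was called, IPO7 (-0.35, FDR 0.0463), and 0 of the 16 particle proteins. The call of IPO7 was lost without HG2, HG3, LG1 or LG2 (FDR 0.0977 to 0.238) and at an FDR of 0.01. It was also lost with upper quartile or library size scaling, no filter, a replicate block and 1 fit of 12 libraries (FDR 0.0529 to 0.129).

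Factors of nonsense-mediated decay, the pathway that degrades the exons of many hosts, were lower with VPA. Of 15, 9 fell and 0 rose in HGV against HG (median -0.44, against 0.025 over all genes), and 7 fell and 0 rose in LGV against LG (median -0.31, against -0.006). SMG9, a regulator of the kinase of the pathway, fell by 0.92 (FDR 5.5e-05) and by 1.13 (FDR 1.62e-05) on the log2 scale. In HG against LG 2 of 15 fell, UPF3A (-0.50, FDR 0.0169) and CASC3 (-0.45, FDR 0.0148), and 0 rose, with falls near the share of all genes (12.7%). The call of UPF3A was lost without HG2, HG3 or LG1 (FDR 0.0796 to 0.0968) and that of CASC3 without HG3, LG1 or LG2 (FDR 0.0696 to 0.0992).

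Proteins that meet NEAT1 in paraspeckles did not move as one with glucose. In HG against LG, HNRNPH3, an RNA-binding protein, rose from 86.2 CPM in LG to 134 CPM in HG (log2 fold change 0.66, SE 0.13, FDR 0.00111), and RBM14 fell (-0.72, SE 0.15, FDR 0.0023). SFPQ, a core protein of the paraspeckle, fell from 465 CPM in LG to 268 CPM in HG (-0.77, SE 0.13, FDR 0.00048). In HGV against LGV SFPQ was again lower (-1.12, FDR 1.29e-05), where NEAT1 was higher by 2.09. The NEAT1 value is for the whole gene and not for a single transcript. With VPA 7 of 11 fell and 0 rose in HGV against HG. In LGV against LG 0 rose, and those that fell included DAZAP1, HNRNPH3, HNRNPK and NONO (-0.70 to -0.38). The call of NONO was lost without LG1, LG2, LGV1 or LGV3 (FDR 0.086 to 0.119) and with upper quartile or library size scaling (FDR 0.0569 and 0.0799).

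Proteins of nuclear speckles, where MALAT1 lies, fell with VPA in most members. Of 11, 10 fell and 0 rose in HGV against HG (median -0.67, against 0.025 over all genes), and 9 fell and 0 rose in LGV against LG (median -0.62, against -0.006), where 20.2% and 19.9% of all genes were called lower. SRRM2, a large scaffold protein of speckles, fell most, by 0.87 (FDR 0.000286) and by 0.98 (FDR 4.21e-05), while MALAT1 had values of -0.17 and 0.18. Of 6 other nuclear lncRNAs with a row, 3 fell and 0 rose in HGV against HG (FTX, JPX and OIP5-AS1), and 0 were called in LGV against LG or in HG against LG. Among these 3, JPX (-0.49, FDR 0.00997) kept its call in every alternative, while FTX (-0.90, FDR 0.0294) lost it without HG1, HG2, HGV2 or HGV3 (FDR 0.0516 to 0.0935) and OIP5-AS1 (-0.32, FDR 0.0278) without HG1, HG3, HGV1 or HGV2 (FDR 0.0592 to 0.0754).

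**Figure D5:**
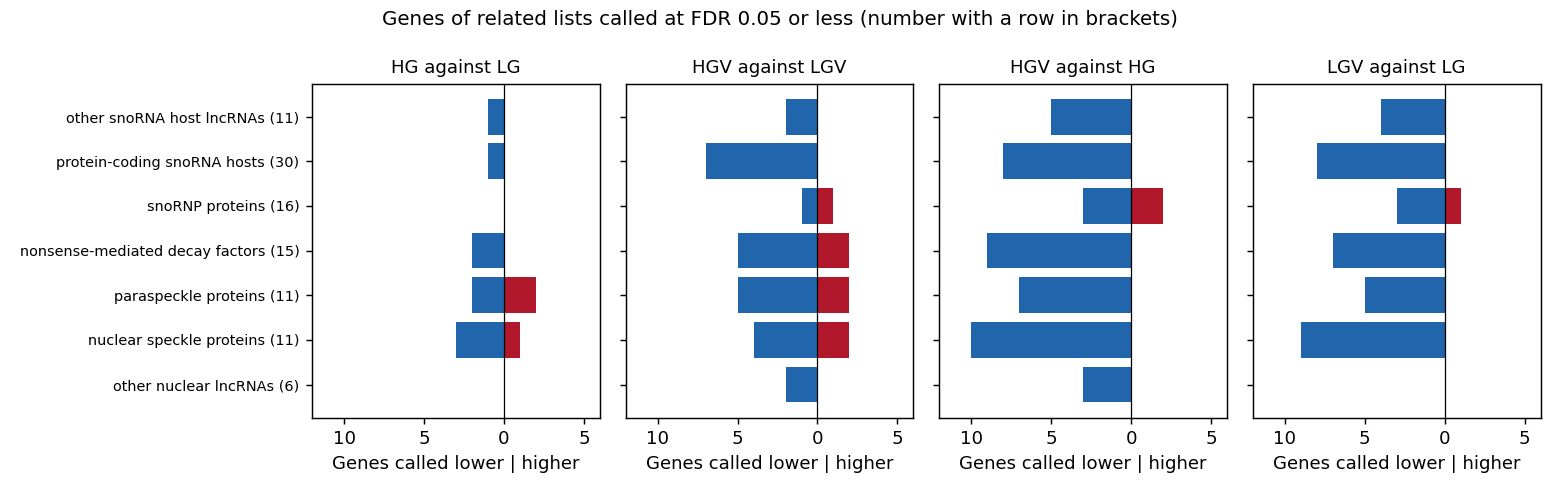
Number of genes of 7 related lists called lower (left of 0) and higher (right of 0) in 4 comparisons, with the number of genes that had a row in brackets. With VPA the calls of 6 of the 7 lists are all lower, and in HG against LG no list has more than 4 calls.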

How the data were processed

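The study sequenced poly(A) RNA of 12 HepG2 libraries with a directional kit in reads of 50 nt. The authors used STAR on trimmed reads against GRCh37 and deposited raw counts per Ensembl gene, made by featureCounts at a mapping quality threshold of 10 and not normalized. Whether counting used strand is not given in the sources used here. The submitters' processing notes name bcl2fastq 2.17.1.14, STAR and featureCounts.

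A gene entered a comparison where its counts averaged 10 or more over those libraries. The authors left out genes averaging fewer than 10 reads. Tests used edgeR 4.0.16 and R 4.3.3 (TMM factors, quasi-likelihood F test, two-sided, Benjamini-Hochberg over all genes tested), and a call needs an FDR no higher than 0.05. HG and LG, HGV and HG, LGV and LG, and HGV and LGV were compared in separate fits, and the interaction in 1 fit of 12 libraries. Comparisons share libraries (HG, for example, enters 2 of them), so that their values are given side by side. The SE is the absolute log2 fold change divided by the square root of F. The alternatives were DESeq2 1.42.0 (size factors or Wald test), upper quartile and library size scaling, edgeR's likelihood ratio test, no filter, 1 CPM in 3 libraries, a replicate block, 1 fit of 12 libraries, an FDR of 0.01, and leaving out each library.

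The 10 RNAs and the gene lists were chosen with earlier results of these data known. Named genes were all 10 RNAs, from each list the genes with the largest called rise and fall and those needed for counts of 5 or fewer, neighbouring and overlapping genes, and for each RNA the 3 genes closest in profile (prior count 2). Not all genes that meet this rule are printed, and some are not reported here. GENCODE gave positions on GRCh37, and 97.47% of rows matched by identifier. No 2 libraries were alike within sampling noise.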

Additional observations from a re-analysis of the deposited data

How the results depend on the processing

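Of the values of the 10 RNAs, 31 changed sign, none of them called, and the cause was not tested. For HG and LG these were SNHG12 with upper quartile factors (0.07), library size (0.08) or no filter (0), and, where a library was left out, SNHG12 (-0.03 to 0.03), MALAT1 (-0.01 to 0.39), EPB41L4A-AS1 (-0.06 to 0.20) and GAS5 (-0.30 to 0.07). For LGV and LG, upper quartile factors gave GAS5 0, SNHG5 0.07 and SNHG6 0.06, library size 0.09, 0.15 and 0.14, and a filter of 1 CPM in 3 libraries SNHG5 0.01 and SNHG6 0. Leaving out a library there gave GAS5 -0.25 to 0.09, SNHG5 -0.12 to 0.13, SNHG6 -0.13 to 0.05, MALAT1 -0.01 to 0.37 and NEAT1 -0.97 to 0.49. It gave MALAT1 -0.34 to 0 for HGV and HG, and SNHG5 -0.44 to 0.01 and SNHG7 -0.31 to 0.04 in the interaction. FRMD8 turned to 0.03 and 0.10 (HGV and HG) and 0.01 and 0.09 (LGV and LG) with upper quartile and library size scaling, and ranged over -0.06 to 0.02 and -0.15 to 0.02 without a library, and EPB41L4A over -0.21 to 0.39 for HGV and LGV. The number of the 10 RNAs called moved by over 1.5 times with DESeq2's Wald test for HG and LG (1, main 2), 1 fit of 12 libraries for HGV and HG (4, main 7), upper quartile factors (1) and library size (0) for LGV and LG (main 2), and an FDR of 0.01 (4 for HGV and HG, 0 for LGV and LG, 1 for HGV and LGV, main 4). Leaving out a library gave 1 to 3 for HG and LG (1 without HG1), 4 to 9 for HGV and HG (4 without HG2, HG3, HGV1 or HGV3), 0 to 4 for LGV and LG (0 without LGV1 or LGV3, 1 without LG1, LG2 or LGV2, 4 without LG3), 2 to 6 for HGV and LGV (2 without HGV1 or LGV2) and 0 to 0 in the interaction. Upper quartile and library size scaling moved the median log2 fold change of all genes to between 0.077 and 0.156 (TMM -0.006 to 0.025) and the share of higher calls to between 61 and 69.7% (TMM 48.6 to 56.1%). Whether libraries of the same number belong together is not settled by these values. Deviations of same-numbered libraries correlated at -0.201 to 0.295 across genes, and those of other numbers at means of -0.15 to 0.098. With a replicate block 7 of the 10 RNAs were called for HGV and LGV (main 4), and as many as without it elsewhere. With 3 libraries per group, small differences cannot be resolved.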
